A study of Mus musculus with 9 samples.

Results

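The genes described here are the mouse receptor tyrosine kinases other than the ERBB and Eph families. They were chosen by symbol, as a list of 35 receptors matched by Entrez identifier to the rows of the count table, and all 35 were found among 24594 genes. The list covers the PDGF, FGF, TAM (Tyro3, Axl, Mertk), HGF, insulin, VEGF, RET, neurotrophin, ALK, ROS, ROR, collagen (DDR), MuSK and TIE receptors and the kinase-dead members Ryk and Ptk7.

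A receptor tyrosine kinase is a membrane protein that binds a ligand outside the cell, usually pairs with a second receptor molecule, and phosphorylates tyrosines on its own tail, which then recruit adaptors feeding the RAS/MAPK and PI3K pathways. In mammary epithelium, Fgfr2, Met and Igf1r receive growth factors that come largely from the stroma and serve duct growth and branching. Pdgfra, Pdgfrb and Ddr2 are best known from fibroblasts and other mesenchymal cells, and Kdr and Flt1 from endothelium.

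Polyadenylated RNA of BG2 cells was sequenced in 9 libraries. BG2 is a line grown from a mammary tumour of an MMTV-NeuIresCre mouse, in which the mammary tumour virus promoter drives the Neu oncogene and Cre recombinase together in mammary epithelium, so every group carries both transgenes. The control was the uncloned wild-type population, whose libraries bear the name NTC. Clones 1 and 2 were picked from 1 cell population edited by CRISPR with guides to exon 3 of Sox10, which encodes a neural crest transcription factor. No other treatment was given in the labels, and the age of the mouse was not given in the sources used here. Each group had 3 technical replicates, with no statement that they came from separate cultures, so the spread behind every p-value is that among these libraries and may be technical. With 1 clone in each knockout group, the loss of Sox10 and the choice of a clone cannot be told apart, and both clones were compared with the same control libraries.

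The libraries held 65805296 to 83282841 counts. Sox10 had 16660 to 26038 counts in a control library and 0 to 6 in a clone library; gene counts do not show the edit itself. Summed CPM (counts scaled to library size, after TMM adjustment) of 8 mammary epithelial markers were 9681 to 11443 in the control, 1109 to 1261 in clone 1 and 1367 to 1549 in clone 2. All 8 markers were lower in both clones, where 29.4% of all genes tested were. A list of 8 basal and myoepithelial markers went the other way, with sums of 3.63 to 5.73 CPM in the control, 25.3 to 27.5 in clone 1 and 137 to 148 in clone 2. Of its 7 tested members, 6 were higher in clone 1 and 5 in clone 2, where 37.9% and 37.3% of all genes tested were. In either clone 0 members were lower, where 38.6% and 37.1% of all genes were. Krt14 made up most of the sum in clone 2. Cldn3 was at 0 in clone 1 and Epcam at 0 in clone 2, so each clone lacked a defining marker of the labelled cell type, mammary epithelial. Other markers of that list remained. Krt8 was at 625 to 704 CPM in clone 1 and 735 to 842 in clone 2, and Krt18 at 443 to 513 and 613 to 683. These keratins made up most of the epithelial sum in each clone. In bulk RNA, fewer cells of a type and less RNA per cell cannot be told apart, and the part of these marker shifts in the receptor results below was not tested.

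Of the 35 receptors, 22 passed the filter on low counts and were tested. Of these, 18 were past the filter's cutoff in all 3 groups; Kdr, Ret and Ltk passed only through the groups where they were higher, and Csf1r fell short in clone 1. In clone 1, 13 receptors were higher than in the control, 8 were lower and 1 did not pass (edgeR, adjusted p under 0.05), where 76.5% of all 13928 genes tested were called (37.9% higher and 38.6% lower). In clone 2, 12 were higher, 7 were lower and 3 did not pass, where 74.4% of all genes were called (37.3% higher and 37.1% lower). The median log2 fold change of the 22 was 0.73 in clone 1 and 0.40 in clone 2, against 0.00 over all genes tested. Both clones were called alike for 18 receptors, where 58.1% of all genes were; 11 were higher and 7 lower, beside 28.7% and 29.4% of all genes. Opposite calls were made for 0 receptors and 4.79% of all genes. Receptors too low to test are not in these counts, which describe the list and compare it with nothing else.

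A change of more than 2-fold was tested with glmTreat, edgeR's test against a minimum fold change. In clone 1 it was called for 14 receptors, 10 higher and 4 lower, where 25.7% of all genes were (12.6% and 13.1%), and in clone 2 for 10, 8 higher and 2 lower, where 24.3% were (12.2% in each direction). It was called in the same direction in both clones for 9 receptors. Pdgfra, Fgfr1, Axl, Tyro3, Kdr, Ntrk3 and Ddr2 were higher, where 8.84% of all genes were, and Fgfr2 and Ltk were lower, where 9.54% were.

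**Figure D1:**
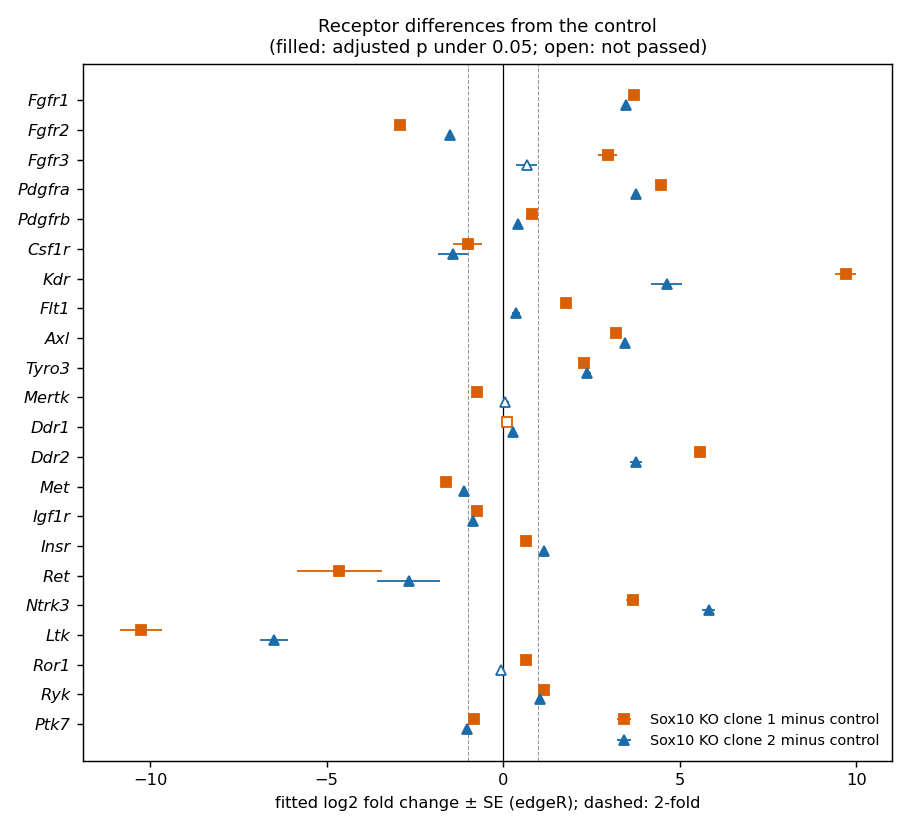
Log2 fold change over the control of the receptors tested, for clone 1 and clone 2, with approximate standard errors as bars. Open symbols did not pass, and the fitted values of Kdr, Ret and Ltk, which rest on few counts in a group, are not bounds. Pdgfra, Fgfr1, Axl, Kdr, Ntrk3 and Ddr2 lie above 3 in both clones, and Fgfr2 lies at -2.92 ± 0.10 in clone 1 and -1.51 ± 0.09 in clone 2.

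Windows before a RefSeq start (GRCm38.p6) are shown for 5 of these 9 receptors, because these receptors passed the 2-fold test in both clones. The windows shown are those in which at most 3 bases lay in a GENCODE M21 exon of any gene. Each is the 250 bases before the start in the RefSeq table, 5′ to 3′ on the gene's strand, with CG pairs in capitals; which start these cells use was not measured. The table's start lies inside the outermost RefSeq bounds of the gene by 929 bases for Pdgfra, 191 for Axl, 617 for Kdr and 21892 for Ddr2, so these windows belong to an inner start, and at the outer bound for Fgfr2 and Igf1r. Igf1r, a receptor with a smaller change, is shown beside them. The regions are chr5:75152001-75152250 for Pdgfra on the plus strand, chr7:25788734-25788983 for Axl, chr1:170088945-170089194 for Ddr2, chr5:75978456-75978705 for Kdr and chr7:130266809-130267058 for Fgfr2, all on the minus strand, and chr7:67952007-67952256 for Igf1r on the plus strand.
Pdgfra: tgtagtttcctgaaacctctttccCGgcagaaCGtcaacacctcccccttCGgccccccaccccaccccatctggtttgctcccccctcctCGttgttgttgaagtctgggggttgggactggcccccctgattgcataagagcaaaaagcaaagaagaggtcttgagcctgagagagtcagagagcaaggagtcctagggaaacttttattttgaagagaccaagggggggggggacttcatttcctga
Axl: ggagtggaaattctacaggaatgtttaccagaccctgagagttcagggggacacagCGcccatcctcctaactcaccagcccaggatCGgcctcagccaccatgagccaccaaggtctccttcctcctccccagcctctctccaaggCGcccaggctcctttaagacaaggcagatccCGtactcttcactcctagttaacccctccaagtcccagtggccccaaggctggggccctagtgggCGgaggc
Ddr2: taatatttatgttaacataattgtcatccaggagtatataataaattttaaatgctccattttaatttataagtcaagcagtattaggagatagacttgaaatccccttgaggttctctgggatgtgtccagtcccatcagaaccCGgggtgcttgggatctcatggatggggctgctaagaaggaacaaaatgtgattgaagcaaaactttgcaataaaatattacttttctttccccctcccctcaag
Kdr: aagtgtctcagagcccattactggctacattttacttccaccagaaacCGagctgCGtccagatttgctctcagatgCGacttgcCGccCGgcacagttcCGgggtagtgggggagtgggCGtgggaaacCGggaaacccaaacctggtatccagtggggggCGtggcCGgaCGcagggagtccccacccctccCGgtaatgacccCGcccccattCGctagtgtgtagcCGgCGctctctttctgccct
Fgfr2: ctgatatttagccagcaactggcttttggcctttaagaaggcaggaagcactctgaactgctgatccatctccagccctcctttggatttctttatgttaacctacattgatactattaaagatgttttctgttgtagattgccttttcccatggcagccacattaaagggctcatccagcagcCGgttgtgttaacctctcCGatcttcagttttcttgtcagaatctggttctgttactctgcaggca
Igf1r: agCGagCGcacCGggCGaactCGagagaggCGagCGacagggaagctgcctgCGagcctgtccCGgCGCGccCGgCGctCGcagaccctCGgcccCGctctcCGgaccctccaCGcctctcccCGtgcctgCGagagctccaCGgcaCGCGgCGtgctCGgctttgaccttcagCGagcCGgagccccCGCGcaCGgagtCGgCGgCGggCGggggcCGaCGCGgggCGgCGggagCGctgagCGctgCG
The Pdgfra, Axl, Ddr2 and Fgfr2 windows held 4, 5, 1 and 2 CG pairs, below the median of 6 over the 32851 windows of the table, and the Kdr window held 16, the upper quartile. The Igf1r window held 42, the most of the 34 receptor windows. Other receptors with smaller changes varied, with 7 for Mertk, 8 for Ror1, 14 for Ptk7 and 33 for Ryk. The windows of Tyro3 and Ltk, which also passed the 2-fold test in both clones, held 24 and 16. These counts describe windows at inner and outer starts alike and were not tested. A search on both strands for ACAAAG and AACAAT (core letters bound by Sox proteins), CAGGTG (an E-box) and TGACTCA (an AP-1 site) found none of them in the 6 windows shown. The motifs were in 16.5%, 9.42%, 17.2% and 4.46% of all windows and in 3, 1, 2 and 3 of the 34 windows of 28 receptors, and no motif is contained in another.

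Pdgfra, the receptor for PDGF-A, -B and -C that marks many fibroblasts, was higher in both clones. It read 7.38, 8.11 and 8.0 CPM in the control libraries, 171, 171 and 175 in those of clone 1 and 103, 108 and 111 in those of clone 2, with no overlap between the groups. The log2 fold change was 4.46 ± 0.06 (SE, edgeR adjusted p = 2.40e-13) in clone 1 and 3.77 ± 0.06 (SE, edgeR adjusted p = 6.68e-13) in clone 2, and clone 2 lay below clone 1 by a log2 difference of -0.68 ± 0.05 (SE, edgeR adjusted p = 6.74e-07). Exons of Pdgfra overlap those of the antisense genes Gm42802 and Gm42803, and with no strand setting of the counting stated, reads of the overlap cannot be told apart.

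Pdgfrb, its relative that binds PDGF-B and marks pericytes, changed less. It read 21.1, 24.8 and 25.8 CPM in the control libraries, 39.1, 46.4 and 41.3 in those of clone 1 and 29.1, 32.7 and 34.5 in those of clone 2; the lowest library of each clone exceeded the highest control library. Log2 fold changes were 0.82 ± 0.10 (SE, edgeR adjusted p = 1.09e-05) and 0.42 ± 0.10 (SE, edgeR adjusted p = 0.00184) in clones 1 and 2. A pericyte list of 6 markers summed to 5.97 to 10.2 CPM in the control, 29.4 to 31.2 in clone 1, mostly Abcc9, and 2.59 to 3.23 in clone 2. Most of the control sum was Notch3, which had 1765 counts there, 80 in clone 1 and 241 in clone 2, while Des went from 10 to 28 and 378 counts and was called higher in both clones. The fibroblast list of 8 markers summed to 1.79 to 2.53 CPM in the control, 5.32 to 6.49 in clone 1 and 4.38 to 4.98 in clone 2. Its tested members were Col1a1, Col1a2 and Col3a1. All 3 were higher in clone 1 and 2 were higher in clone 2, where 37.9% and 37.3% of all genes tested were. Lum, Thy1 and Dpt were at 0 counts in all 9 libraries. The part of either list in the values of Pdgfra and Pdgfrb was not tested.

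Of the ligands, Pdgfb was lower in both clones, at 85.2 CPM in the control, 8.04 in clone 1 and 9.31 in clone 2, log2 fold changes of -3.41 ± 0.11 (SE, edgeR adjusted p = 1.40e-10) and -3.19 ± 0.11 (SE, edgeR adjusted p = 2.12e-10). Pdgfa went in opposite directions, -0.51 ± 0.06 in clone 1 and 0.23 ± 0.06 in clone 2 on the log2 scale (edgeR adjusted p = 1.10e-05 and 0.00477), from 72.1 CPM. Pdgfc was higher, with log2 fold changes of 0.42 ± 0.07 and 0.25 ± 0.07 (edgeR adjusted p = 1.75e-04 and 0.00653). The listed ligand Pdgfd had 52 counts in the control, 1 in clone 1 and 0 in clone 2. So Pdgfra and Pdgfrb, both higher, were accompanied by Pdgfb that fell in both clones, Pdgfc that rose and Pdgfa that differed between them.

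Kit and Flt3, receptors of blood cell and mast cell progenitors, were too low to test. Kit had 10 counts in the control, all in 1 library, and 0 in both clones, and Flt3 had 2 counts in the control and 0 in the clones. Csf1r, the macrophage colony-stimulating factor receptor, read 0.303, 0.676 and 0.346 CPM in the control libraries, 0.303, 0.131 and 0.229 in those of clone 1 and 0.156, 0.185 and 0.153 in those of clone 2. The groups overlapped between control and clone 1, and control replicate 2 was the highest library. The edgeR call of Csf1r as lower in clone 1, -1.01 ± 0.42 (SE, edgeR adjusted p = 0.0467), was lost when control library 2, library 2 or 3 of clone 1 or any library of clone 2 was left out, without the filter on low counts, in a fit of these groups alone, with DESeq2 (adjusted p = 0.0642) and with the replicate number as a block (log2 fold change -0.97, edgeR adjusted p = 0.0818). In clone 2 the Csf1r log2 fold change was -1.42 ± 0.43 (SE, edgeR adjusted p = 0.0109), and the call was lost without control replicate 2 (-0.98, edgeR adjusted p = 0.0659). The immune list of 9 markers summed to 0.235 to 0.460 CPM in the control, 0.425 to 0.472 in clone 1 and 6.12 to 7.65 in clone 2, where Lyz2 gave most of it, with Tyrobp, C1qa and Cd3e at 0 in all libraries; its part in the Csf1r values was not tested. Exons of Csf1r overlap the antisense gene Hmgxb3. Both ligands of Csf1r were lower in both clones, Csf1 from 575 to 309 and 437 CPM and Il34 from 66.2 to 38.5 and 18.6 CPM.

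Pdgfra, Kit and Kdr are neighbours on chromosome 5, at chr5:75151322-75198206, chr5:75574987-75656722 and chr5:75932827-75979072 (RefSeq, GRCm38.p6). Pdgfra and Kdr were higher in both clones while Kit, between them, stayed at 0 counts in both. Chic2, the nearest tested gene to Pdgfra on its other side, was at 49.7 ± 1.01 CPM (SD, n = 3) in the control, 56.7 ± 2.35 in clone 1 and 41.9 ± 1.3 in clone 2. The other tested genes of chromosome 5 had a median log2 fold change of 0.01 in clone 1 and 0.00 in clone 2.

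**Figure D2:**
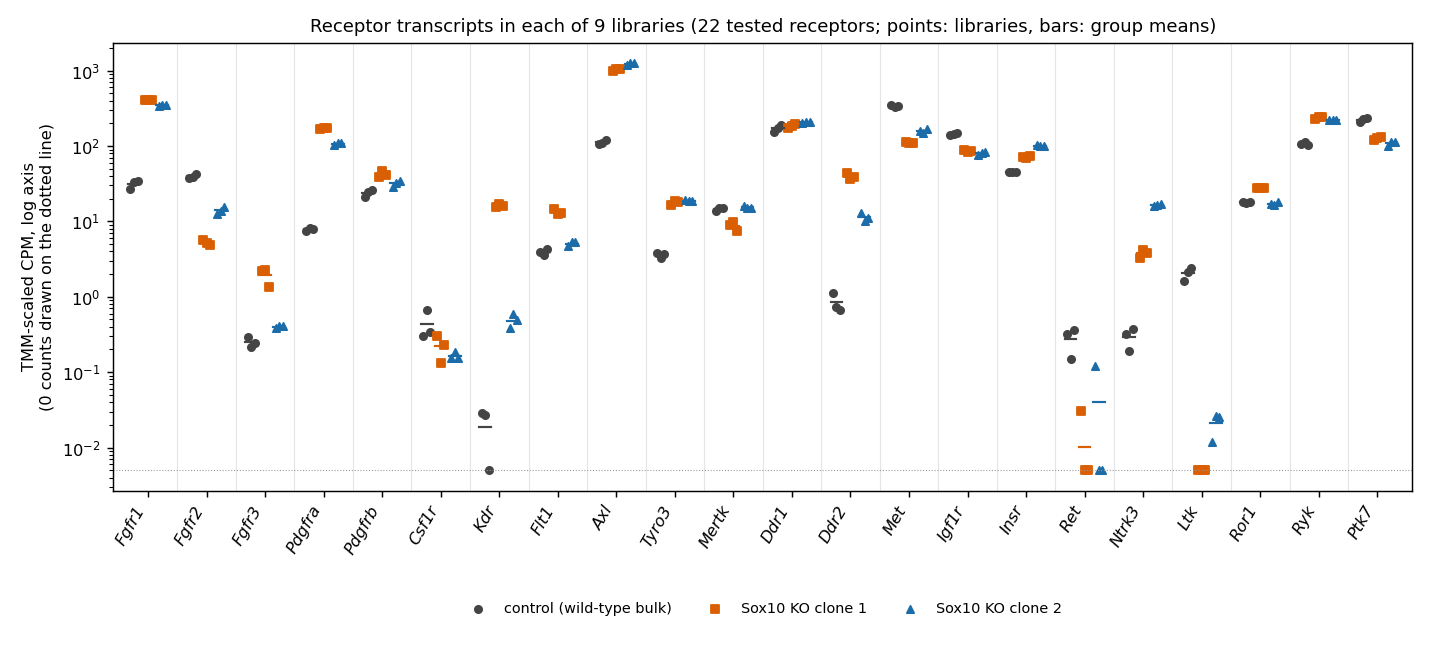
TMM-scaled CPM (log axis) of the receptors tested in each of the 9 libraries, with points for libraries and bars for group means; a count of 0 is drawn on the dotted line. The 3 libraries of a group lie close together for Axl, Fgfr1 and Pdgfra. They spread most for Ret in the clones and for Kdr in the control, where counts are few.

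Fgfr1 and Fgfr2 moved in opposite directions. Fgfr1, the main FGF receptor of mesenchymal cells, read 26.8, 33.1 and 34 CPM in the control libraries, 407, 412 and 412 in those of clone 1 and 339, 348 and 353 in those of clone 2, with every clone library above every control library. Its log2 fold change was 3.71 ± 0.08 (SE, edgeR adjusted p = 7.64e-12) in clone 1 and 3.47 ± 0.08 (SE, edgeR adjusted p = 1.19e-11) in clone 2, and the difference of clone 2 from clone 1 was -0.24 ± 0.07 (SE, edgeR adjusted p = 0.0146). Fgfr2, whose epithelial splice form receives Fgf7 and Fgf10 from the stroma, read 38.2, 39 and 42.4 CPM in the control libraries, 5.66, 5.2 and 4.91 in those of clone 1 and 12.5, 13.9 and 15.7 in those of clone 2, again without overlap. It was lower, with log2 fold changes of -2.92 ± 0.10 (SE, edgeR adjusted p = 2.58e-10) and -1.51 ± 0.09 (SE, edgeR adjusted p = 4.47e-08), and was higher in clone 2 than in clone 1 by a log2 difference of 1.42 ± 0.10 (glmTreat adjusted p = 0.00217). Counts per gene do not separate splice forms, and exons of Fgfr2 overlap those of Ctbp2 on the same strand and those of Fgfr1 the antisense gene Gm16159.

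Fgfr3, which restrains bone growth, differed between the clones. It read 0.289, 0.216 and 0.247 CPM in the control libraries, 2.23, 2.27 and 1.36 in those of clone 1 and 0.384, 0.41 and 0.409 in those of clone 2. All 3 libraries of clone 1 lay above the rest, clone 1 replicate 3 being the lowest of them. The log2 fold change was 2.96 ± 0.27 (SE, edgeR adjusted p = 1.18e-06) in clone 1 and 0.68 ± 0.30 (SE, edgeR adjusted p = 0.0588) in clone 2, which passed only when library 3 of clone 1 was left out, and clone 2 was below clone 1 by a log2 difference of -2.28 ± 0.25 (glmTreat adjusted p = 7.06e-04); exons of Fgfr3 overlap the antisense gene G630022F23Rik. Fgfr4, the receptor of bile acid control in liver, had 6 counts in the control and 0 in the clones.

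Among the listed ligands of Fgfr1 and Fgfr2, Fgf2, a broadly acting FGF, was higher in both clones, at 0.545 CPM in the control, 14.3 in clone 1 and 13.6 in clone 2, log2 fold changes of 4.72 ± 0.22 (SE, edgeR adjusted p = 2.90e-09) and 4.65 ± 0.21 (SE, edgeR adjusted p = 3.47e-09). Fgf1 was lower, from 0.278 to 0.056 and 0.0339 CPM (edgeR adjusted p = 0.00125 and 2.87e-04). Fgf7 was at 0.926, 0.186 and 0.398 CPM; its call as lower in clone 2 (edgeR adjusted p = 0.04) did not hold when control library 1 or 3, or library 2 or 3 of clone 2, was left out. Fgf22 did not pass in either clone. Fgf3, Fgf4, Fgf5, Fgf20 and Fgf23 were at 0 counts in all libraries, and Fgf6, Fgf8, Fgf10 and Fgf21 were too low to test. Fgfbp1, a carrier that releases FGFs from the matrix, was lower in both clones, from 29 to 0.141 and 0.255 CPM, log2 fold changes of -7.66 ± 0.22 and -6.83 ± 0.20 (edgeR adjusted p = 7.01e-11 and 8.30e-11).

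Of the TAM receptors, which recognise phosphatidylserine on dying cells through the bridging ligands Gas6 and Pros1, Axl and Tyro3 were higher in both clones and Mertk was not. Axl read 108, 109 and 119 CPM in the control libraries, 978, 1040.3 and 1067 in those of clone 1 and 1178, 1259.9 and 1265 in those of clone 2, with the lowest clone library far above the highest control library. Its log2 fold change was 3.20 ± 0.06 (SE, edgeR adjusted p = 3.06e-12) in clone 1 and 3.46 ± 0.06 (SE, edgeR adjusted p = 1.93e-12) in clone 2, and clone 2 exceeded clone 1 by 0.26 ± 0.06 (SE, edgeR adjusted p = 0.00226) on the same scale. Tyro3 read 3.87, 3.26 and 3.71 CPM in the control libraries, 16.6, 18.7 and 18.1 in those of clone 1 and 19.1, 18.9 and 18.7 in those of clone 2, so that both clones lay above the control and overlapped each other. The log2 fold changes of Tyro3, 2.30 ± 0.09 (SE, edgeR adjusted p = 7.46e-10) and 2.39 ± 0.09 (SE, edgeR adjusted p = 5.72e-10), were close, and the difference of clone 2 from clone 1 was 0.08 ± 0.08 (SE, edgeR adjusted p = 0.402). Mertk, the receptor used by macrophages to clear dying cells, read 13.8, 15.2 and 15.2 CPM in the control libraries, 8.84, 9.93 and 7.51 in those of clone 1 and 16.1, 15 and 15.1 in those of clone 2, so that clone 1 lay below the other groups, which overlapped. The log2 fold change was -0.75 ± 0.10 (SE, edgeR adjusted p = 4.18e-05) in clone 1 and 0.06 ± 0.10 (SE, edgeR adjusted p = 0.587) in clone 2, which did not pass; the difference between the clones was 0.81 ± 0.10 (SE, edgeR adjusted p = 4.78e-05).

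The bridging ligands went opposite ways. Gas6, which binds all 3 TAM receptors, had 285 counts in the control and 2 in each clone, and was lower by 135-fold (95% interval of the count ratio, 37 to 1118) and 151-fold (95% interval of the count ratio, 41.4 to 1251). Pros1, protein S, which binds Tyro3 and Mertk, was higher, at 1.11 CPM in the control, 41.7 in clone 1 and 73 in clone 2, log2 fold changes of 5.24 ± 0.12 (SE, edgeR adjusted p = 1.12e-11) and 6.04 ± 0.12 (SE, edgeR adjusted p = 4.35e-12). Axl and its ligand Gas6 thus changed in opposite directions in both clones.

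**Figure D3:**
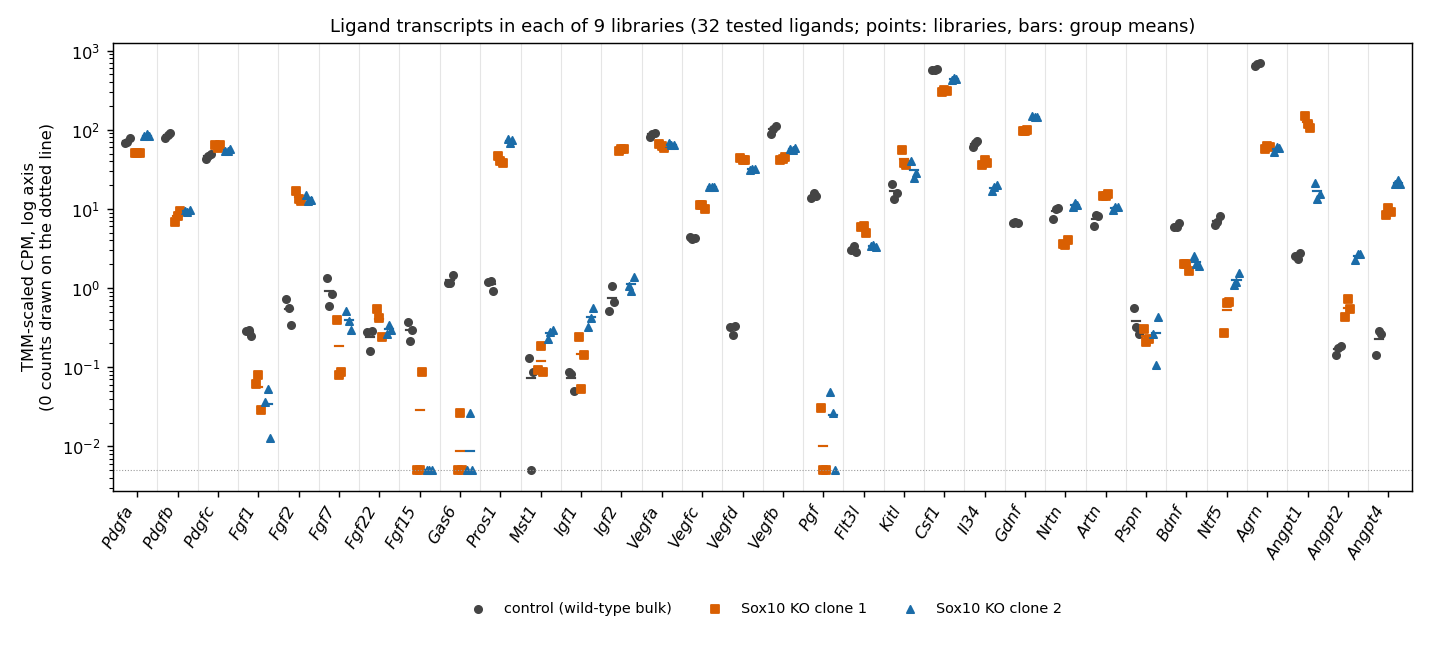
TMM-scaled CPM (log axis) of the tested ligands of these receptors in each library, with points for libraries and bars for group means; a count of 0 is drawn on the dotted line. Gas6 and Pgf fall to a few counts in the clones, and Fgf2, Pros1, Vegfd and Gdnf lie above the control in every clone library.

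Met, the hepatocyte growth factor receptor, was lower in both clones. It read 355, 325 and 336 CPM in the control libraries, 112, 109.9 and 109 in those of clone 1 and 158, 150.2 and 167 in those of clone 2, and no library of a clone overlapped the control. Relative to the control, its log2 fold change was -1.62 ± 0.05 (SE, edgeR adjusted p = 1.86e-10) in clone 1 and -1.10 ± 0.05 (SE, edgeR adjusted p = 4.95e-09) in clone 2, and passed the 2-fold test in clone 1 but not in clone 2 (glmTreat adjusted p = 0.0518); clone 2 was higher than clone 1 by 0.53 ± 0.05 (SE, edgeR adjusted p = 7.64e-06) on the log2 scale. Its ligand Hgf had 21 counts in the control, 4 in clone 1 and 0 in clone 2. Mst1r, the related RON receptor, had 2, 4 and 6 counts.

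The inhibitors of the proteases that activate HGF, Spint1 and Spint2, were lower as well. Spint1 was at 283 CPM in the control and had 0 counts in clone 1 and 4 in clone 2, at least 20117-fold lower and 16883-fold (95% interval of the count ratio, 6593 to 61964) lower. Plxnb1, a semaphorin receptor that associates with Met, was at 120.4, 19.5 and 34.9 CPM, lower in both clones; Spint2 and Plxnb1 were named after their values were seen.

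The insulin family receptors went opposite ways. Igf1r, which binds IGF1 and IGF2, read 141, 145 and 148 CPM in the control libraries, 87.7, 84.1 and 86.3 in those of clone 1 and 75.4, 81.8 and 82.4 in those of clone 2, with each clone below the control throughout. Clone 1 had a log2 fold change of -0.75 ± 0.05 (SE, edgeR adjusted p = 7.24e-08) and clone 2 of -0.86 ± 0.05 (SE, edgeR adjusted p = 2.37e-08). The difference between the clones, -0.11 ± 0.05 (SE, edgeR adjusted p = 0.0843), passed only with the replicate number as a block (edgeR adjusted p = 0.027). Insr, the insulin receptor, read 45.8, 45.4 and 45.3 CPM in the control libraries, 71.1, 68.5 and 73.3 in those of clone 1 and 103, 99.7 and 99.9 in those of clone 2, and the order control, clone 1, clone 2 held for every library. It was higher, with log2 fold changes of 0.64 ± 0.05 (SE, edgeR adjusted p = 1.70e-07) and 1.15 ± 0.05 (SE, edgeR adjusted p = 1.14e-09), and clone 2 exceeded clone 1 by 0.51 ± 0.05 (SE, edgeR adjusted p = 3.58e-06). Insrr, a sensor of alkaline pH in kidney, had 1 count in the control and 0 in the clones.

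Igf2, a ligand of both receptors, was at 0.742 CPM in the control, 56.1 in clone 1 and 1.12 in clone 2, log2 fold changes of 6.23 ± 0.20 (SE, edgeR adjusted p = 1.22e-10) and 0.59 ± 0.23 (SE, edgeR adjusted p = 0.0338), the second of which was lost when control library 1 or 3 or library 3 of clone 2 was left out and in a fit of these groups alone. Clone 1 thus stood far above the other groups. Of the insulin receptor substrates, which carry the signal inward, Irs1 was lower in both clones, from 86.2 to 32.2 and 33.4 CPM, and Irs2 higher, from 21.7 to 49.1 and 41.4 CPM. Igf2, Irs1 and Irs2 were named after their values were seen.

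The VEGF receptors, known from endothelium, separated the clones. Kdr, the main signalling receptor of VEGF-A, had 4 counts in the control and read 0.0289, 0.027 and 0 CPM in the control libraries, 15.3, 17.2 and 16.1 in those of clone 1 and 0.384, 0.583 and 0.485 in those of clone 2, with no overlap between the groups. It was higher by 912-fold (95% interval of the count ratio, 356 to 3347) in clone 1 and 26.9-fold (95% interval of the count ratio, 10.2 to 101) in clone 2 (edgeR adjusted p = 7.75e-11 and 1.72e-06), and clone 2 was 33.8-fold (95% interval of the count ratio, 28.1 to 41.2) below clone 1 (glmTreat adjusted p = 9.42e-09). Flt1, which binds VEGF-A, VEGF-B and PlGF with little signalling of its own, read 3.89, 3.6 and 4.29 CPM in the control libraries, 14.5, 12.6 and 13.1 in those of clone 1 and 4.66, 5.32 and 5.3 in those of clone 2, again without overlap. The log2 fold change was 1.77 ± 0.11 (SE, edgeR adjusted p = 3.80e-08) in clone 1 and 0.37 ± 0.11 (SE, edgeR adjusted p = 0.00855) in clone 2, and clone 2 lay below clone 1 by a log2 difference of -1.39 ± 0.11 (glmTreat adjusted p = 0.00495). Flt4, the lymphatic VEGF receptor, had 7, 0 and 1 counts.

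The endothelial list of 8 markers summed to 3.26 to 5.46 CPM in the control, 0.630 to 1.08 in clone 1 and 0.492 to 0.805 in clone 2. Most of the control sum was Egfl7, which had 902 counts there and 14 in each clone. Vwf was called higher in both clones, with 0 counts in the control, 135 in clone 1 and 75 in clone 2, and Cdh5, too low to test, had 2, 4 and 34. Cldn5 was at 0 in all libraries, and Pecam1 had 2, 6 and 6 counts in the control, clone 1 and clone 2; the part of this list in the Kdr and Flt1 values was not tested. The angiopoietin receptor Tek had 6, 2 and 6 counts and its partner Tie1 had 1, 0 and 0, so neither was testable.

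Of the VEGF ligands, Vegfd was higher in both clones, at 0.303 CPM in the control, 42.1 in clone 1 and 31.5 in clone 2, log2 fold changes of 7.11 ± 0.10 (SE, edgeR adjusted p = 2.51e-13) and 6.69 ± 0.10 (SE, edgeR adjusted p = 4.44e-13). Vegfc was higher, with log2 fold changes of 1.32 ± 0.08 and 2.14 ± 0.08 (edgeR adjusted p = 5.00e-08 and 7.92e-10), and Vegfa was lower, at -0.50 ± 0.06 and -0.42 ± 0.06 (edgeR adjusted p = 1.80e-05 and 6.98e-05). Summed counts of Vegfb, another ligand of Flt1, were lower by 2.34-fold in clone 1 and 1.78-fold in clone 2, with every clone library below every control library. Pgf, placental growth factor, a ligand of Flt1, was at 14.7 CPM in the control and had 2 and 6 counts in clones 1 and 2, lower by 1562-fold (95% interval of the count ratio, 432 to 12901) and 582-fold (95% interval of the count ratio, 267 to 1588). The angiopoietin Angpt4 was higher, at 0.229, 9.2 and 21.4 CPM, log2 fold changes of 5.30 ± 0.18 (SE, edgeR adjusted p = 2.29e-10) and 6.52 ± 0.18 (SE, edgeR adjusted p = 3.96e-11). The VEGF co-receptor Nrp1 was called in opposite directions, at 76.6, 116 and 60.6 CPM.

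Ret, the receptor of the GDNF ligands in enteric and other neurons, was low everywhere and lower in the clones. It had 22, 11 and 29 counts in the control libraries, 2, 0 and 0 in those of clone 1 and 10, 0 and 0 in those of clone 2, so that every library of a clone lay below every control library. The summed counts were lower by 29.3-fold (95% interval of the count ratio, 7.78 to 247) in clone 1 and 6.56-fold (95% interval of the count ratio, 3.34 to 14.4) in clone 2 (edgeR adjusted p = 0.00416 and 0.018). All 10 counts of clone 2 came from its replicate 1, and the clone 2 call did not hold when control library 3, or library 2 or 3 of clone 2, was left out. Its ligand Gdnf was higher, at 6.66, 97.8 and 146 CPM, log2 fold changes of 3.88 ± 0.05 (SE, edgeR adjusted p = 2.40e-13) and 4.45 ± 0.05 (SE, edgeR adjusted p = 1.40e-13). Gfra2, a co-receptor that presents such ligands to Ret, was higher too, at 0.35, 39.4 and 27.2 CPM, log2 fold changes of 6.78 ± 0.16 and 6.25 ± 0.16 (edgeR adjusted p = 1.13e-11 and 2.12e-11). Gfra1, another listed co-receptor, had 1, 4 and 4 counts in the control, clone 1 and clone 2, and was named after its values were seen. Of the other listed ligands, Nrtn had 2098, 786 and 2652 counts, Artn 1701, 3143 and 2431, and Pspn 84, 52 and 64.

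Ntrk3, the receptor of neurotrophin 3, read 0.318, 0.189 and 0.371 CPM in the control libraries, 3.31, 4.2 and 3.78 in those of clone 1 and 16.3, 16.7 and 17.1 in those of clone 2, in the order control, clone 1, clone 2 for every library. It was higher, with log2 fold changes of 3.67 ± 0.19 (SE, edgeR adjusted p = 8.01e-09) and 5.82 ± 0.18 (SE, edgeR adjusted p = 1.26e-10), and clone 2 exceeded clone 1 by 2.15 ± 0.14 (glmTreat adjusted p = 1.25e-05). Its ligand Ntf3 had 0, 2 and 0 counts. Ntrk2, the BDNF receptor, had 0, 0 and 2 counts. Ngfr, the low-affinity neurotrophin receptor that works beside the Ntrk kinases, was at 7.32 CPM in the control and 0 counts in both clones, at least 518-fold and at least 579.9-fold lower. The Schwann and neural crest list of 6 markers, most of it Mbp, summed to 109.9 to 122 CPM in the control, 28.1 to 31.8 in clone 1 and 38.2 to 39.7 in clone 2; its part in the Ret, Ntrk3 and Ltk values was not tested.

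Ltk, which with Alk is activated by the ALKAL cytokines and serves pigment cells in fish, read 1.62, 2.12 and 2.4 CPM in the control libraries, 0, 0 and 0 in those of clone 1 and 0.012, 0.0265 and 0.0255 in those of clone 2, every control library lying above every clone library. It had 463 counts in the control, 0 in clone 1 and 5 in clone 2, at least 146-fold lower and 98-fold (95% interval of the count ratio, 41.7 to 303) lower (edgeR adjusted p = 2.13e-07 and 3.08e-07). The call between the clones (edgeR adjusted p = 0.0431) was lost when control library 2, any library of clone 1 or library 2 or 3 of clone 2 was left out, with a filter at 1 CPM, without the libraries numbered 1, and with the replicate block (edgeR adjusted p = 0.0633). Alk had 6, 6 and 0 counts and Ros1 had 3, 0 and 0. The ligand gene Alkal1 was at 0 in all libraries and Alkal2 had 2 counts, in clone 2.

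The collagen receptors changed to different extents. Ddr1, the collagen receptor of epithelia, read 154, 173 and 189 CPM in the control libraries, 175, 187 and 194 in those of clone 1 and 202, 211 and 209 in those of clone 2, and control and clone 1 overlapped. Its log2 fold change was 0.11 ± 0.07 (SE, edgeR adjusted p = 0.187) in clone 1, which passed only with the replicate block (edgeR adjusted p = 0.0226) and without control replicate 3, and 0.27 ± 0.07 (SE, edgeR adjusted p = 0.00465) in clone 2. The difference between the clones, 0.16 ± 0.07 (SE, edgeR adjusted p = 0.0683), passed, among other alternatives, with the block (edgeR adjusted p = 0.00161). Ddr2, the fibrillar collagen receptor of mesenchymal cells, read 1.13, 0.743 and 0.667 CPM in the control libraries, 44.1, 37.1 and 38.8 in those of clone 1 and 12.9, 10.2 and 11.1 in those of clone 2, without overlap. It was higher, with log2 fold changes of 5.57 ± 0.17 (SE, edgeR adjusted p = 1.17e-10) and 3.76 ± 0.17 (SE, edgeR adjusted p = 2.94e-09), and clone 2 lay below clone 1 by a log2 difference of -1.81 ± 0.13 (glmTreat adjusted p = 1.64e-04). Ddr2 overlaps the antisense gene 3110045C21Rik and Ddr1 overlaps Gm4577.

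The receptors tied to Wnt signalling gave 3 patterns. Ryk, a kinase-dead Wnt receptor, read 107, 113 and 103 CPM in the control libraries, 232, 240.1 and 246 in those of clone 1 and 223, 224 and 224 in those of clone 2, with both clones above the control. Its log2 fold changes were 1.15 ± 0.05 (SE, edgeR adjusted p = 1.20e-09) and 1.06 ± 0.05 (SE, edgeR adjusted p = 2.68e-09). Ptk7, a kinase-dead receptor of planar cell polarity, read 209, 226 and 234 CPM in the control libraries, 119, 126 and 130.1 in those of clone 1 and 101, 114 and 112 in those of clone 2, with both clones below. Its log2 fold changes were -0.83 ± 0.06 (SE, edgeR adjusted p = 2.10e-07) and -1.03 ± 0.06 (SE, edgeR adjusted p = 3.43e-08); the smaller difference between the clones, -0.20 ± 0.06 (SE, edgeR adjusted p = 0.017), did not hold when library 2 or 3 of clone 1, or library 1 of clone 2, was left out. Ror1, a Wnt5a receptor, read 17.8, 17.5 and 18.3 CPM in the control libraries, 28.1, 27.4 and 28 in those of clone 1 and 16.8, 16.7 and 17.9 in those of clone 2, so that clone 1 stood above the other groups. Against the control it gave a log2 fold change of 0.64 ± 0.06 (SE, edgeR adjusted p = 1.78e-06) in clone 1 and -0.06 ± 0.06 (SE, edgeR adjusted p = 0.356) in clone 2, which did not pass. Clone 2 minus clone 1 was -0.70 ± 0.06 (SE, edgeR adjusted p = 2.30e-06) on the log2 scale. Ror2 and Musk, the agrin-dependent receptor of the muscle synapse, each had 2 counts in the control and 0 in the clones. The Ror ligand Wnt5a had 54 counts in the control and 0 in the clones, and Agrn, a matrix proteoglycan that acts through Lrp4 on MuSK, was lower, from 669 to 59.7 and 57 CPM; it was named after its values were seen.

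The 13 receptors too low to test, all given above, had at most 10 counts in any group. At this depth a count of 0 over the 3 libraries of a group allows up to 0.0134 CPM in the control, 0.0142 in clone 1 and 0.0127 in clone 2, from 3 counts; such limits and intervals cover counting error alone, as PCR copies of a molecule were not separated.

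Levels of different receptors were compared as CPM per kilobase of exon. In the control the order began with Met (44.1 ± 1.99 CPM per kilobase, SD, n = 3), Ptk7 (41.4 ± 2.39), Ddr1 (36 ± 3.65), Ryk (23.7 ± 1.13) and Axl (22.2 ± 1.22). The library ranges of Met and Ptk7, of Ptk7 and Ddr1, and of Ryk and Axl overlapped. In clone 1 it began with Axl (204 ± 9.04), Ryk (52.8 ± 1.55), Fgfr1 (41.6 ± 0.332) and Ddr1 (38.8 ± 1.98). In clone 2 it began with Axl (245 ± 9.73), Ryk (49.3 ± 0.101), Ddr1 (43.4 ± 0.947) and Fgfr1 (35.1 ± 0.717). These first 4 did not overlap in either clone. Met went from rank 1 in the control to rank 7 in clone 1 and 5 in clone 2, Fgfr1 from rank 11 to 3 and 4, Pdgfra from 13 to 6 and 7, and Fgfr2 from 8 to 17 and 14. Some of these ranks are shared within the library ranges. In the control Fgfr1 overlapped Mertk, Insr and Ror1, and Fgfr2 overlapped Pdgfrb. In clone 2 Met overlapped Ptk7, and Fgfr2 overlapped Ddr2.

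Summed over the 35 receptors, CPM per kilobase was 199.7 in the control, 428 in clone 1 and 456 in clone 2. Axl made up 11.1% of the sum in the control, 47.7% in clone 1 and 53.8% in clone 2. Met made up 22.1%, 3.34% and 4.52%, and Ptk7 20.7%, 5.45% and 4.46%. Fgfr1 went from 1.59% to 9.72% and 7.7%, and Pdgfra from 0.391% to 4.02% and 2.35%. Ryk kept a similar share, 11.9%, 12.3% and 10.8%. These are transcript levels, and protein was not measured.

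**Figure D4:**
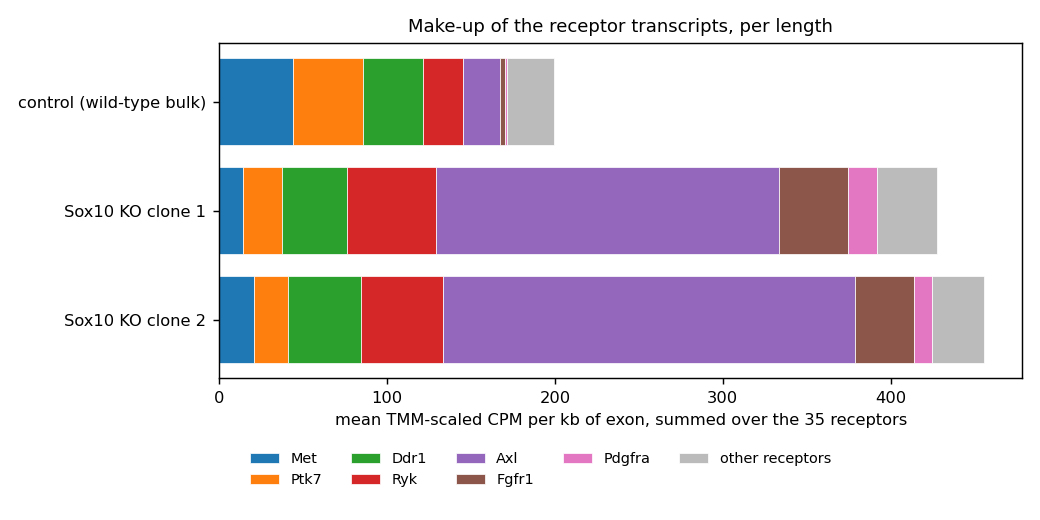
Mean CPM per kilobase of exon, stacked over the 35 receptors, in the control, clone 1 and clone 2; colours are the receptors that reach 10 in a group and grey is all others. Met and Ptk7 lead in the control with shares of 22.1% and 20.7%, and Axl takes 47.7% in clone 1 and 53.8% in clone 2.

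Compared with each other, clone 2 was higher than clone 1 for 7 receptors and lower for 9, and 6 did not pass (edgeR), where 57.6% of all genes were called (30.1% higher and 27.5% lower in clone 2). A difference of more than 2-fold was called for 6, where 8.52% of all genes were. Fgfr2 and Ntrk3 were higher in clone 2, in which direction 4.67% of all genes were, and Fgfr3, Kdr, Flt1 and Ddr2 were higher in clone 1, where 3.84% were. Kdr and Flt1 were thus both higher in clone 1, as were Pdgfra and Pdgfrb by less than 2-fold.

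The wider pathway was described from 3 lists. Of 54 ligands, 32 were tested; 12 were higher and 13 lower in both clones and 1 was called in opposite directions. Of 35 co-receptors and regulators, 28 were tested, with 8 higher and 8 lower in both clones and 2 in opposite directions, Nrp1 and Gfra4. Of 43 signal relays, the adaptors and enzymes that bind the phosphorylated receptors, 37 were tested, with 15 higher and 10 lower in both clones. The shares of all genes called higher and lower in both clones were those given above, 28.7% and 29.4%.

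The relays named by size of change were adaptors and scaffolds. Grb7, an adaptor whose gene neighbours Erbb2, was at 51 CPM in the control and had 2 counts in clone 1 and 24 in clone 2, lower by 5432-fold (95% interval of the count ratio, 1503 to 44861) and 507-fold (95% interval of the count ratio, 340.3 to 791). Its relative Grb14, which binds the insulin receptor, was higher, at 0.647, 5.4 and 35.3 CPM, log2 fold changes of 3.05 ± 0.13 (SE, edgeR adjusted p = 1.46e-09) and 5.76 ± 0.13 (SE, edgeR adjusted p = 7.22e-12). Shc2, a docking adaptor of neural tissue, was at 0.14, 36.3 and 37.4 CPM, higher by 7.97 ± 0.14 (SE, edgeR adjusted p = 1.42e-12) and 8.02 ± 0.14 (SE, edgeR adjusted p = 1.57e-12) on the log2 scale. Gab2, a scaffold of the PI3K branch, was at 19.7, 1.34 and 2.01 CPM, lower, with log2 fold changes of -3.88 ± 0.21 (SE, edgeR adjusted p = 1.50e-08) and -3.29 ± 0.20 (SE, edgeR adjusted p = 4.27e-08). Ptpn11, the phosphatase SHP2, was higher by 0.22 ± 0.04 and 0.20 ± 0.04 on the log2 scale (edgeR adjusted p = 7.32e-04 and 0.00161) and was named after its values were seen.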

How the data were processed

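Stranded libraries of polyadenylated RNA from 9 samples were counted per gene. The deposited values are raw counts, whole numbers without normalization; per the submitters' processing notes the authors used fastp, Subread and DESeq2 with the builds mm10 and GRCm38. Not given in the sources used here were versions, the gene annotation and whether counting used strand. Entrez identifiers were matched to symbols with the RefSeq gene table (GRCm38.p6), which named 24570 genes; the other 24 held at most 0.202% of a library.

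The counts were fitted with edgeR 4.0.16 (R 4.3.3): filterByExpr with a minimum count of 10, TMM scaling and a quasi-likelihood fit of 3 groups over 9 libraries, with Benjamini-Hochberg adjustment over 13928 genes at 0.05, and glmTreat at 2-fold. The common biological coefficient of variation was 0.0878. SE is the absolute log2 fold change over the square root of F. Fold ratios with counting intervals use summed counts and a 95% exact interval, and "at least" is set against a floor of 3 counts over a group. Exon lengths and overlaps come from GENCODE M21 (GRCm38), promoter windows from RefSeq.

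Receptors and lists were chosen with earlier results of these data known. Named were every receptor, up to 4 genes per pathway list by mean change among those called alike in both clones at 5 CPM or more, and the ligands of receptors past the 2-fold test in both clones; other genes named are said to be named after their values were seen, as are Nrp1, Gfra4, Csf1, Il34, Hgf, Gdnf, Wnt5a and the ligands of receptors outside that test. Same-numbered libraries deviated together from their group means (r from 0.144 to 0.587). The main fit did not use the replicate numbers, so its p-values are unpaired, and a fit with the number as a block is an alternative. Libraries numbered 2 and 3 also correlated across numbers (r from 0.0779 to 0.393), in part above their same-numbered values, and those numbered 1 alone stood apart. Other alternatives were DESeq2 1.42.0, other scalings and filters, 2 groups at a time, leaving out each library and, added later, leaving out the libraries numbered 1.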

Additional observations from a re-analysis of the deposited data

Results flagged for a closer look

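The clones differed from each other by more than 2-fold in 6 receptors, each by a test of the difference itself (glmTreat, clone 2 minus clone 1, log2 scale). The difference was 1.42 ± 0.10 for Fgfr2 (adjusted p = 0.00217) and 2.15 ± 0.14 for Ntrk3 (adjusted p = 1.25e-05), both higher in clone 2 in 3 of 3 libraries. It was -2.28 ± 0.25 for Fgfr3 (adjusted p = 7.06e-04), -5.07 ± 0.18 for Kdr (adjusted p = 9.42e-09), -1.39 ± 0.11 for Flt1 (adjusted p = 0.00495) and -1.81 ± 0.13 for Ddr2 (adjusted p = 1.64e-04), all higher in clone 1 in 3 of 3 libraries. Each clone is a single clone, so a difference between clones and a difference between cultures cannot be told apart. Groups of 3 libraries are too small for the test of single outlying samples.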

How the results depend on the processing

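Over the 22 receptors tested and 3 contrasts, 1115 of 1180 recomputed values kept their direction and side of the threshold, 52 lost the call, 13 gained it and 0 reversed. A receptor that an alternative did not test gave no value there, so a call lost that way is not among the 52. With a filter at 1 CPM in 3 libraries, 6 receptors were called lower in clone 1 in place of 8, and 5 in clone 2 in place of 7. Counts of called genes moved by over 1.5 times only when a change above 2-fold was required. Then 10 receptors were called in clone 2 in place of 19, 9 in both clones in place of 18, and 6 between the clones in place of 16. Under the same requirement 16 of 32 tested ligands, 10 of 28 regulators and 10 of 37 relays were called alike in both clones. These replaced 25, 16 and 25. Of all genes tested, 8.84% were higher and 9.54% lower in both clones at 2-fold.

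Leaving out 1 library at a time gave 20 to 22 receptors called in clone 1, 18 to 20 in clone 2, 16 to 18 in both and 14 to 18 between the clones. Without the libraries numbered 1, which stood apart on the third principal component and were left out after seeing the data, these counts were 21, 19, 18 and 17. With the replicate block they were 21, 19, 18 and 18; the block changed the calls of Csf1r, Ddr1, Ltk, Igf1r and Ryk (for Ryk the difference between the clones, -0.10, passed with edgeR adjusted p = 0.0345) and of no other receptor. Counts per library limit Csf1r, Ret and Ltk, and the cause of these lost calls was not tested.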

Other observations

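Clock, a circadian transcription factor gene on chromosome 5 on the far side of Kdr from Kit, was at 31.3 ± 6.61 CPM (SD, n = 3) in the control, 165 ± 28.7 in clone 1 and 61.8 ± 14.5 in clone 2, and Srd5a3, between Kdr and Clock, at 31.7 ± 2.01, 46.3 ± 1.43 and 35.4 ± 0.833. Like Kdr, both were highest in clone 1, as were most of the other tested genes around Pdgfra and Kdr. Abcc9, a potassium channel subunit of pericytes and muscle, had 28 counts in the control, 6123 in clone 1 and 17 in clone 2, and Kcnj8, which encodes the pore of the same channel, had 0, 102 and 0. Gfra4, a co-receptor for RET ligands, was at 5.05, 11.6 and 0.718 CPM, higher in clone 1 and lower in clone 2 (edgeR adjusted p = 1.48e-04 and 5.20e-07). Angpt1, the activating ligand of Tek, was at 2.56, 125 and 16.6 CPM, higher in both clones (edgeR adjusted p = 4.25e-10 and 1.55e-07). Clock, Srd5a3, Abcc9, Kcnj8, Gfra4 and Angpt1 were chosen after their values were seen.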
